A study of Mus with 7 samples.

Results

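The 40 genes described here are Myc, which encodes a transcription factor, and 39 genes whose proteins build ribosomes, most of them in the nucleolus. They were taken by gene symbol, with no threshold on their levels, and all 40 were among the 31053 features of the count files. Members and the other lists below were chosen with earlier results of these data known, so counts over them are descriptions and not tests. Their levels were read in mouse fetal liver-derived macrophages (FLMs), a self-renewing culture of genotype wt from C57BL/6J mice that was kept in 30 ng/mL granulocyte-macrophage colony-stimulating factor (GM-CSF) under every condition. Con cells were collected from medium with 10% fetal bovine serum (FBS) before any treatment. The other 6 groups spent 24 h in 0.25% FBS, either with 8.3 µM bovine serum albumin alone (Veh) or with 25 µM docosahexaenoic acid, an omega-3 fatty acid, on 8.3 µM albumin (DHA). Lipopolysaccharide (LPS), the bacterial ligand of the receptor TLR4, was then given in fresh treatment medium at 20 ng/mL for 1 h (Veh.LPS.1, DHA.LPS.1) or 4 h (Veh.LPS.4, DHA.LPS.4), whereas Veh.LPS.0 and DHA.LPS.0 were collected without it. Each condition was 1 library of a cultured line, so no difference has a replicate check, no test was possible, and every interval covers counting error only. Con and Veh.LPS.0 differ in serum, in albumin and in 24 h of culture, which cannot be told apart, and LPS cannot be told apart from the change of medium that came with it.

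Ribosomes are assembled in the nucleolus, where RNA polymerase I copies the ribosomal RNA genes into a long precursor. Small nucleolar ribonucleoproteins (snoRNPs) then modify that RNA, the box C/D class by methylation and the box H/ACA class by turning uridine into pseudouridine, while separate sets of factors cut and fold the parts that become the small and the large subunit. MYC is a well known activator of this whole programme in growing cells, and the making of ribosomes is among the costliest tasks of a dividing cell.

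The unit of level was UMIs (unique molecular identifiers, which mark single captured RNA molecules) divided by the total of the library and multiplied by 1000000 (CPM), summed over cells with over 20000 UMIs, at least 2000 genes and under 20% mitochondrial UMIs. Between 692 and 3073 cells per library passed, 11640 of 31151 barcodes in all, with 22045775 to 125716982 UMIs behind a library. The share of barcodes at or over the mitochondrial limit was 29.0% to 54.7% in Con and Veh and 74.4% to 80.0% in DHA, so the DHA libraries rest on fewer of their barcodes. The label macrophage matched most of its markers. Spi1 lay between 171 and 317 CPM, Fcer1g and Lyz2 had a UMI in all cells kept, and the 9 markers together summed to 5817 to 7089 CPM. Csf1r and Adgre1 were found in fewer cells, down to 53.2% and 61.2% in a library. Csf1r stood at 137 CPM in Con, 36.7 in Veh.LPS.4 and 31.3 in DHA.LPS.4, and Adgre1 lay between 27.6 and 62.1 CPM. Of the markers of other cells, mast and stromal markers summed to at most 0.0907 CPM and erythroid markers to at most 0.285 CPM. Neutrophil markers summed to 0.0571 to 6.99 CPM, nearly all from S100a8, with S100a9 and Ly6g at 0, and hepatocyte markers to 5.48 to 7.71 CPM, nearly all from Afp, with Alb and Ttr at 0. UMIs were read at the 3′ end, and levels are compared here between libraries and not between genes.

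Summed over all 40 genes, the level was 12294 CPM in Con, 7794 in Veh.LPS.0, 8250 in Veh.LPS.1 and 9300 in Veh.LPS.4, beside 7253, 7551 and 8755 CPM in DHA at 0, 1 and 4 h. Con was therefore highest, Veh.LPS.0 was lowest within Veh, and each DHA library lay below the Veh library of its time. Leaving out Ncl and Npm1, the 2 members with the most UMIs, the sums were 5573 CPM in Con, 3508 to 4220 CPM over the Veh libraries and 3013 to 4013 CPM over the DHA libraries, with the 7 libraries in the same order. Of the 40 genes, 33 had their highest level in Con and 5 in Veh.LPS.4, and 33 had their lowest in DHA.LPS.0 or DHA.LPS.1, 19 and 14 of them. The order of Con and Veh.LPS.4 depended on the scaling: with TMM factors, which scale on the bulk of the genes rather than on the total, the sums were 11328 CPM in Con and 11337 in Veh.LPS.4, and 19 genes were highest in Con and 21 in Veh.LPS.4. The heat map of levels shows the programme gene by gene.

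**Figure D1:**
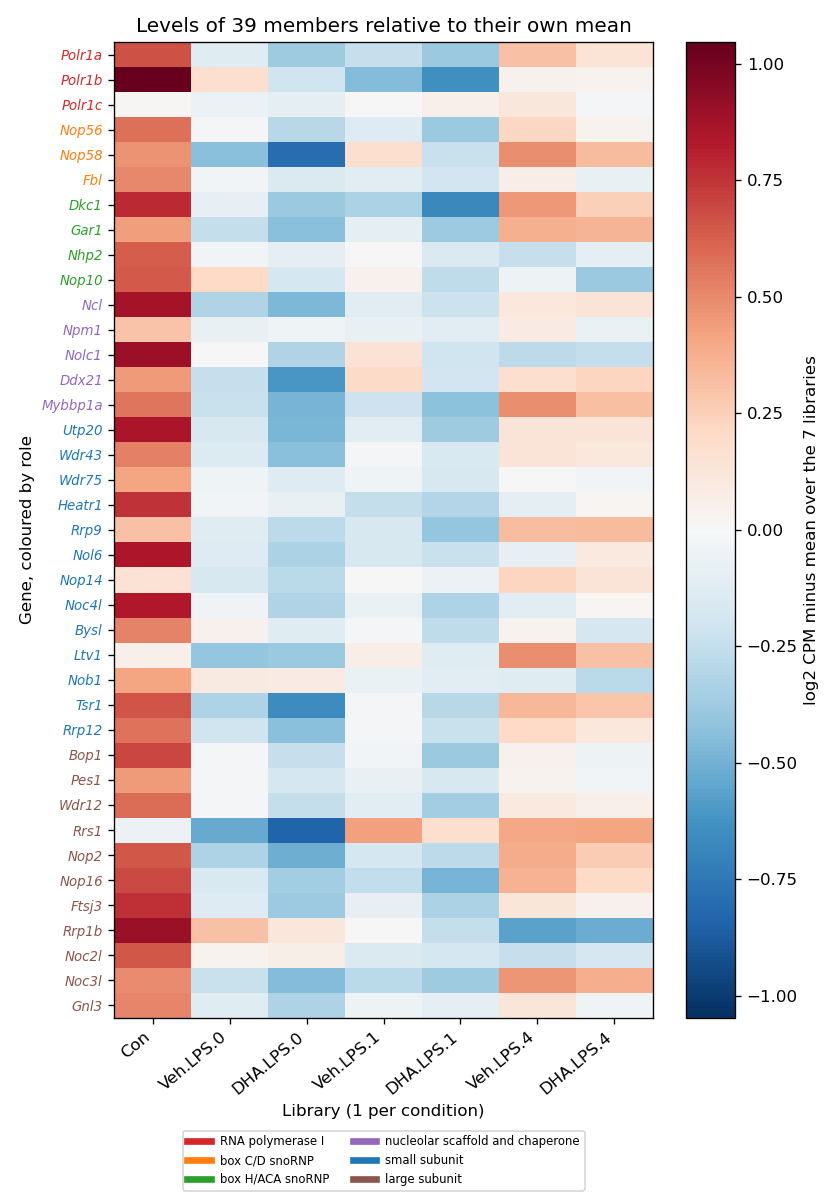
Colour gives the log2 CPM of each gene minus that gene's own mean over the 7 libraries (columns, 1 library per condition), with gene names coloured by role. Myc is left out because its range is far wider. Con is red for most rows, the 0 h libraries are mostly blue, and the 4 h libraries turn red for Nop58, Mybbp1a, Ltv1, Rrs1 and Noc3l but blue for Rrp1b.

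Myc, the transcription factor of the set, had the widest range over the libraries on the log2 scale. It lies on chromosome 15 from 61985341 to 61990361 (RefSeq, GRCm38.p6). Myc stood at 0.262 CPM in Con, then at 0.577, 4.15 and 11.1 in the Veh libraries of 0, 1 and 4 h and at 1.03, 4.93 and 9.12 in the DHA libraries of those times. Levels were higher at each later time in LPS, and Con, the highest library for 33 members, was the lowest for Myc. The lowest of these values rested on 33 UMIs in Con, with an exact Poisson 95% interval of 0.181 to 0.369 CPM, and the highest on 653 UMIs in Veh.LPS.4, with 10.3 to 12.0 CPM. Relative to Veh.LPS.0 the ratio was 7.18 at 1 h and 19.3 at 4 h in Veh. After thinning every cell to 20000 UMIs, a Myc UMI was found in 0.344% of Con cells (exact binomial 95% interval 0.165% to 0.631%) and in 13.8% of Veh.LPS.4 cells (11.7% to 16.1%), beside 0.894% and 28.6% before thinning. No cell type that should lack Myc was in these libraries, so a background share from free RNA could not be given.

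Mycn, the family member MYCN, is no member of the set and was picked for description after its values were seen. It stood at 138 CPM in Con, then at 104, 78.6 and 33.0 in the Veh libraries of 0, 1 and 4 h and at 84.5, 65.6 and 38.3 in the DHA libraries of those times. The order was opposite to that of Myc in both arms, with a log2 ratio of -1.65 (95% interval -1.72 to -1.58) at 4 h of LPS in Veh and -1.14 in DHA, or -1.22 and -0.83 with TMM factors. Its UMIs were found in 91.8% of thinned Con cells and 47.4% of thinned Veh.LPS.4 cells. Mycl, the remaining family member, had at most 1 UMI in any library.

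**Figure D2:**
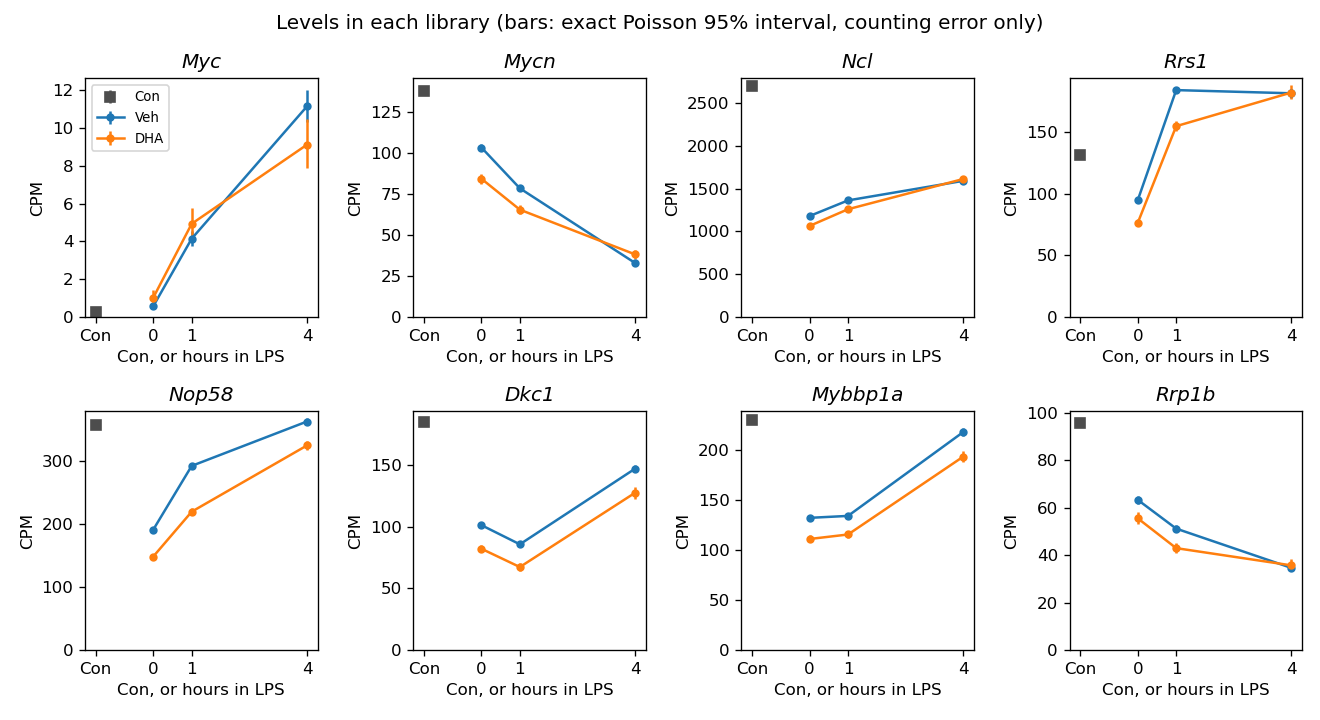
Each panel gives the CPM of a gene in the 7 libraries, with Con apart and the Veh (blue) and DHA (orange) libraries at 0, 1 and 4 h of LPS, and bars for the exact Poisson 95% interval, which are smaller than most symbols. Myc climbs from 0.262 CPM in Con to 11.1 in Veh.LPS.4 while Mycn drops from 138 to 33.0, and Rrs1 has reached its 4 h level by 1 h in Veh on this scale while Dkc1 and Mybbp1a have not.

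The first comparison, Veh.LPS.0 against Con, asked how the programme stood after 24 h in reduced serum. In it 27 of 40 genes fell by more than 1.5-fold, where such a fall was found in 7.76% of 8252 genes. Here and below, a gene counts as tested when 25% or more of the cells on at least 1 side hold its UMI, and as risen or fallen when it also passes 1.5-fold. None of the members rose, beside 9.31% of all genes that did. Every member except Myc had a negative log2 ratio, with a median of -0.68 over the members and -0.07 over all genes, and TMM factors gave 27 lower and 0 higher. Brackets after a log2 ratio below hold its exact binomial 95% interval.

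Falls were found in every role group other than that of Myc itself. Ncl, on chromosome 1 from 86344719 to 86359455, encodes nucleolin, an abundant nucleolar protein that binds ribosomal RNA and its genes, and it stood at 2697 CPM in Con, then at 1181, 1363 and 1592 in the Veh libraries of 0, 1 and 4 h and at 1065, 1260.2 and 1613 in the DHA libraries of those times. Con was far above all other libraries, with a log2 ratio of -1.19 (95% interval -1.20 to -1.18) from Con to Veh.LPS.0, the lowest of the set. In the same scaffold group Nolc1, a chaperone of snoRNPs, fell by 0.89 on the log2 scale, as did Mybbp1a, a nucleolar repressor that binds MYB, by 0.80 and the RNA helicase Ddx21 by 0.69. Npm1, the nucleolar chaperone nucleophosmin, had -0.37 and did not pass the limit.

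Of the 3 RNA polymerase I genes, the catalytic subunits Polr1a and Polr1b fell by 0.80 and 0.87 on the log2 scale, while Polr1c, a subunit shared with RNA polymerase III, had -0.07. That was the smallest difference of the set, and Polr1c ranged only from 56.4 to 65.9 CPM over the 7 libraries. Among the box C/D genes, Nop58 and Nop56, which encode scaffold proteins, fell by 0.90 and 0.59. Fbl, which encodes the methyltransferase fibrillarin, had -0.53. Among the box H/ACA genes, Dkc1, which encodes the pseudouridine synthase, fell by 0.87, Gar1 by 0.69 and Nhp2 by 0.67. Nop10, the gene of the smallest core protein, had -0.44.

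Of the 13 small subunit factors, 7 fell, with a median log2 ratio of -0.67. Utp20, a very large scaffold of the early small subunit precursor, had the lowest value of that group at -1.02 (-1.08 to -0.97). Nol6 and Noc4l, further parts of that precursor, fell by 0.98 and 0.88, the GTPase-like Tsr1, which acts late in the cytoplasm, by 0.98, and Rrp12, an export factor, by 0.77. The other 2 that fell were Heatr1 and Wdr43, also of the early precursor, whose further members Wdr75, Rrp9 and Nop14 had -0.45, -0.43 and -0.32. The late factors Nob1, the nuclease that makes the end of the mature small subunit RNA, Ltv1 and Bysl did not pass the limit, with -0.32, -0.46 and -0.47.

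Of the 11 large subunit factors, 9 fell, with a median log2 ratio of -0.64. Nop2, a methyltransferase of large subunit RNA, had the lowest value at -0.97 (-1.03 to -0.92), and Ftsj3 and Nop16 fell by 0.90 and 0.85. Of the 3 genes of the PeBoW complex, which matures large subunit RNA, Bop1 and Wdr12 fell by 0.71 and 0.60 and Pes1 had -0.47. Noc3l, Noc2l, Rrp1b and nucleostemin, Gnl3, fell by 0.73, 0.61, 0.60 and 0.64. Rrs1, an assembly factor of the large subunit, had -0.47.

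Further genes of the pathway, listed apart from the members, were lower by less. Of 36 other small subunit factors 13 fell and none rose (median log2 ratio -0.44), and of 39 other large subunit factors 17 fell and none rose (median -0.48). Nat10, an RNA acetyltransferase, had the lowest value of the first list at -1.15 and the helicase Ddx51 that of the second at -1.04. Of 12 other RNA polymerase I genes 2 fell, of 14 RNA polymerase III genes 2 fell, and of 11 RNA exosome genes measured 2 fell, with no rise in these 3 lists. The 35 cytosolic ribosomal protein genes, the products that these factors assemble, went the other way in sign but by little: 33 were positive, the median was 0.18, and none passed 1.5-fold. Of 14 enzymes of growth metabolism that MYC is known to drive, 7 fell, among them spermidine synthase, Srm, with -1.09, and 1 rose, ornithine decarboxylase, Odc1, with 0.99.

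Of 16 proliferation genes 15 were negative but 1 fell past 1.5-fold (median -0.39), near the 7.76% of all genes, and of 16 S-phase genes 8 fell (median -0.59). In cells at or below the Veh.LPS.0 median of summed proliferation and S-phase UMIs, 735 cells of Con and 1241 of Veh.LPS.0, 19 of the 40 members fell and the median over all 40 was -0.55. The median over all genes in those cells was -0.06, and the share of all genes that fell in them is not given here.

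**Figure D3:**
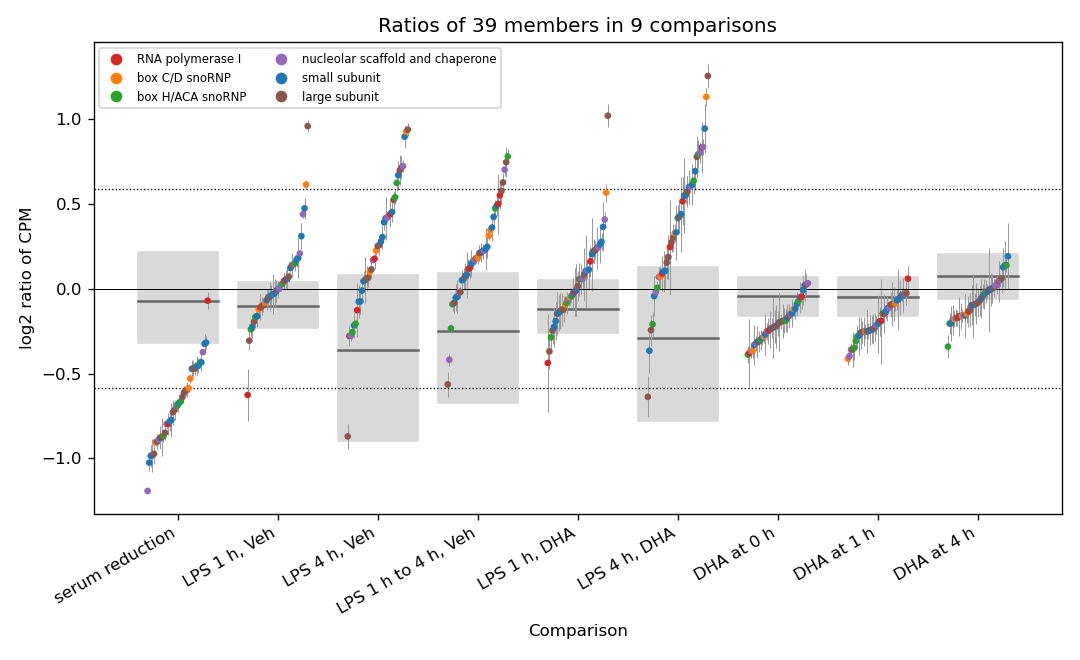
Points are the log2 ratios of CPM of 39 members (Myc left out) in the 9 comparisons, ordered within each and coloured by role, with thin bars for the exact binomial 95% interval. Grey boxes and lines give the quartiles and the median over all genes tested, and dotted lines mark 1.5-fold. Most members lie below the box for serum reduction, most lie above the all-gene line for LPS at 4 h, and most lie below it for DHA.

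At 1 h of LPS, Veh.LPS.1 against Veh.LPS.0, few members passed the limit. Rrs1 and Nop58 rose and Polr1b fell, so that 2 of 40 were higher and 1 lower, beside 4.15% and 4.24% of 8089 genes. The median log2 ratio was 0.00 over the members and -0.10 over all genes, and 32 of the 40 stayed within 1.2-fold, beside 70.0% of all genes. Rrs1, on chromosome 1 from 9545408 to 9547455, stood at 131 CPM in Con, then at 94.7, 184 and 181 in the Veh libraries of 0, 1 and 4 h and at 76.3, 155 and 182 in the DHA libraries of those times. Its 1 h and 4 h libraries were all above its 0 h libraries and above Con, a pattern that set it apart from the members that were highest in Con. The log2 ratio at 1 h was 0.96 (95% interval 0.92 to 0.99).

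Nop58, on chromosome 1 from 59684961 to 59711510, stood at 359 CPM in Con, then at 191, 293 and 363 in the Veh libraries of 0, 1 and 4 h and at 149, 220.0 and 325 in the DHA libraries of those times. It climbed at each time in both arms, with 0.61 at 1 h in Veh. Ltv1, Ddx21 and Tsr1 had 0.47, 0.44 and 0.31 and did not pass the limit. Myc had 2.84 (2.44 to 3.27), far past 1.5-fold, but its UMIs were found in too few cells for a call. At the low end were Polr1b with -0.63 (-0.78 to -0.47), Rrp1b with -0.31 and Dkc1 with -0.24. Polr1b passed the limit narrowly and did not with TMM factors, which left 2 members higher and 0 lower. It met the share limit of 25% only through Veh.LPS.0, with its UMI in 30.7% of those cells and 16.7% of Veh.LPS.1 cells. After thinning these shares were 18.4% and 12.0%, both under the limit, so the call of Polr1b depends on depth.

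At 4 h of LPS in Veh the balance of the members was toward higher values and that of all genes toward lower ones. Against Veh.LPS.0, 9 of 40 rose past 1.5-fold and 1 fell, where 10.2% of 8385 genes rose and 38.3% fell. Myc, 1 of those 9, met the share limit of 25% only through Veh.LPS.4, the library with the most UMIs per cell (median 56239). Thinning each cell to 20000 UMIs lowered the Myc share of that library from 28.6% to 13.8%, under the limit, so this call depends on depth. The median log2 ratio was 0.25 over the members and -0.36 over all genes, 30 members were positive, and 39 lay above the all-gene median. TMM factors moved every log2 ratio of this comparison by 0.43. With them 24 members rose and 0 fell, beside 21.7% and 21.1% of all genes, and the member median was 0.69.

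After Myc, with 4.27 (3.88 to 4.69), Rrs1 and Nop58 had the highest values at 0.94 (0.90 to 0.98) and 0.92 (0.90 to 0.95). The other 6 that rose came from 4 roles. Gar1 of the box H/ACA class had 0.62, Mybbp1a of the scaffold group 0.72, Ltv1 and Tsr1 of the late small subunit 0.90 and 0.67, and Nop2 and Noc3l of the large subunit 0.71 and 0.70. Mybbp1a, on chromosome 11 from 72441327 to 72451770, stood at 229.5 CPM in Con, then at 132, 134 and 218 in the Veh libraries of 0, 1 and 4 h and at 111, 115 and 193 in the DHA libraries of those times. Its 4 h libraries were well above 0 h and 1 h in both arms and close to Con.

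Rrp1b, a nucleolar protein of the large subunit precursor, was the exception. It lies on chromosome 17 from 32036162 to 32062865 and stood at 95.7 CPM in Con, then at 63.3, 51.2 and 34.6 in the Veh libraries of 0, 1 and 4 h and at 55.5, 43.0 and 35.7 in the DHA libraries of those times. Con was highest and the level was lower at every later time in both arms. Its log2 ratio at 4 h in Veh was -0.87 (-0.94 to -0.80), or -0.44 with TMM factors, which is short of the limit. Noc2l and Nolc1 were the next lowest at -0.28 and -0.28, followed by Nop10 at -0.26, Nob1 at -0.22 and Nhp2 at -0.21. With TMM factors those 5 were positive, from 0.15 for Noc2l to 0.23 for Nhp2, so that their direction depends on the scaling.

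The RNA levels of genes whose proteins work in the same complex did not all keep together at 4 h, a contrast within libraries that no scaling alters. Protein levels were not measured. In the box H/ACA class Gar1 and Dkc1 had 0.62 (0.57 to 0.67) and 0.54 (0.50 to 0.58), whereas Nhp2 and Nop10 had -0.21 (-0.23 to -0.18) and -0.26 (-0.30 to -0.22). Their intervals were far apart. Noc3l had 0.70 (0.61 to 0.78) and Noc2l, its partner in a large subunit complex, -0.28 (-0.34 to -0.22). The box C/D scaffold genes Nop58 and Nop56 had 0.92 and 0.22, and Fbl had 0.10. By contrast the PeBoW genes Bop1, Pes1 and Wdr12 lay close together at 0.06, 0.06 and 0.11. The DHA libraries gave the same split, with 0.79 for Gar1, 0.63 for Dkc1, 0.00 for Nhp2 and -0.21 for Nop10, and with 0.83 for Noc3l and -0.24 for Noc2l.

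Every role group had a positive median at that time. Median log2 ratios at 4 h in Veh were 0.18 for RNA polymerase I, 0.22 for box C/D, 0.17 for box H/ACA, 0.42 for the scaffold group, 0.28 for the small subunit and 0.25 for the large subunit. In the last of these groups values ran from -0.87 to 0.94.

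From 1 h to 4 h in Veh, 5 members rose and 0 fell, beside 7.98% and 29.3% of 8010 genes, or 15 and 0 with TMM factors, beside 16.6% and 16.3%. The scaling moved log2 ratios by 0.34. The risers were Myc with 1.43, Dkc1 with 0.78, Noc3l with 0.75, Mybbp1a with 0.70 and Nop16 with 0.63. Myc again passed the share limit through Veh.LPS.4 alone. Dkc1, on chromosome X from 75095854 to 75109776, stood at 185 CPM in Con, then at 101, 85.6 and 147 in the Veh libraries of 0, 1 and 4 h and at 82.0, 67.2 and 127 in the DHA libraries of those times, below its 0 h level at 1 h and above it at 4 h in both arms. Rrs1 and Ddx21, which were among the highest at 1 h, had -0.02 and -0.02 from 1 h to 4 h, or 0.32 each with TMM factors. Ddx21 stood at 406 CPM in Con, then at 252, 342 and 337 in the Veh libraries of 0, 1 and 4 h and at 195, 259 and 349 in the DHA libraries of those times. At the low end stood Rrp1b with -0.56, Nolc1 with -0.42 and Nhp2 with -0.23. The comparisons of 0, 1 and 4 h share libraries and are not independent.

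Other pathway genes at 4 h in Veh were counted in the same way. Of the 36 other small subunit factors 4 rose and 1 fell, with Nol10 highest at 1.10 and Imp3 lowest at -0.74. Of the 39 other large subunit factors 6 rose and 0 fell, with Rpf1 highest at 0.79 and Nvl lowest at -0.47. With TMM factors 12 and 20 rose and 0 fell. Of the 12 other RNA polymerase I genes 0 rose and 1 fell, or 3 rose and 0 fell with TMM factors. Of the 14 RNA polymerase III genes 1 rose and 5 fell, or 3 rose and 2 fell with TMM factors, and of the 11 exosome genes 0 rose and 4 fell, or 2 rose and 1 fell, so that the direction of these 3 lists depends on the scaling. Of all genes 10.2% rose and 38.3% fell, or 21.7% and 21.1% with TMM factors. Without TMM factors the rises in the small and large subunit lists were thus not far from the share of all genes. No ribosomal protein gene passed 1.5-fold and 34 of 35 were negative, with a median of -0.16, which was 0.27 with TMM factors. Among the growth enzymes 2 rose and 7 fell, or 2 and 5 with TMM factors, with Odc1 at 2.13 and Mthfd1, an enzyme of folate metabolism, at -1.55. Of 10 MYC network genes measured, Mycn among them, 1 rose and 4 fell, or 1 and 2 with TMM factors.

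Proliferation genes went the other way at that time. All 16 fell, from -1.48 for Ube2c to -3.09 for Plk1, with a median of -2.06, and 14 of 16 S-phase genes fell. Within cells at or below the Veh.LPS.0 median of proliferation and S-phase UMIs, 7 members rose and 1 fell between 1241 cells of Veh.LPS.0 and 899 of Veh.LPS.4, with a median of 0.20. The median over all genes in those cells was -0.32, and the shares of all genes past the limit in them are not given here.

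In the DHA arm the LPS ratios were taken against DHA.LPS.0. At 1 h 1 member rose, Rrs1 with 1.02, and 0 fell, beside 4.66% and 4.97% of 8474 genes. Myc had 2.26 and Nop58 0.57, just short of the limit, while Polr1b, Rrp1b and Dkc1 were lowest at -0.44, -0.37 and -0.29. At 4 h 13 rose and 1 fell, beside 9.64% and 33.6% of 8477 genes, with a median of 0.42 over the members and -0.29 over all genes. TMM factors moved log2 ratios by 0.31, and with them 23 rose and 0 fell, beside 18.7% and 20.7%. Over all deposited barcodes 6 rose at 4 h, with a median of 0.22 over the members and -0.30 over all genes. The share of all genes that rose in that setting is not given here.

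The 13 risers at 4 h held Nop58, Gar1, Mybbp1a, Ltv1, Tsr1, Rrs1, Nop2 and Noc3l, which had also risen in Veh, and Dkc1, Ncl, Ddx21, Utp20 and Rrp9, which had not passed the limit there. Rrp9 is a protein of the U3 snoRNP, which guides cutting of the small subunit precursor. Highest were Myc, with 3.15 and again too few cells for a call, Rrs1 with 1.25 and Nop58 with 1.13. A Myc UMI was in 20.5% of DHA.LPS.4 cells, at a median of 29631 UMIs per cell. After thinning the share was 15.0%, beside 13.8% in Veh.LPS.4, so the call in Veh alone is no contrast between the arms. Lowest were Rrp1b with -0.64, the single member that fell, Nob1 with -0.37 and Noc2l with -0.24.

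The difference between the 4 h LPS ratios of the DHA and Veh arms was near that of all genes. It was positive for 33 of 40 members, with a median of 0.13 on the log2 scale, beside 70.8% of 8194 genes and a median of 0.13. TMM factors moved every difference by -0.12 and left 21 members positive with a median of 0.01, beside 50.3% of all genes. The counting interval lay above 0 for 21 members and below 0 for 3, or for 10 and 9 with TMM factors. Ddx21 had the highest difference at 0.42 (95% interval 0.36 to 0.47) and Myc the lowest at -1.12 (95% interval -1.77 to -0.48), or 0.29 and -1.25 with TMM factors. At 1 h the median difference was 0.01 over the members and -0.01 over all genes. These differences come from the same libraries as the DHA comparisons that follow and repeat them in another form.

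DHA against Veh at the same time gave no call at any time. At 0 h 0 of 40 members rose and 0 fell, where 1.08% and 0.949% of 8434 genes did. The median log2 ratio was -0.20 over the members and -0.05 over all genes, and 36 members were negative, beside 60.6% of all genes. Lowest were Nop10 with -0.39 (-0.44 to -0.34), Polr1b with -0.38 and Ddx21 with -0.37, and highest were Myc with 0.83 (0.19 to 1.46), Npm1 with 0.03 and Noc2l with 0.03. Myc rested on 57 UMIs in Veh.LPS.0 and 36 in DHA.LPS.0, in too few cells for a call. Of the members 27 lay within 1.2-fold, beside 82.1% of all genes. Nop10 stood at 219.5 CPM in Con, then at 162, 145 and 136 in the Veh libraries of 0, 1 and 4 h and at 124, 117 and 107 in the DHA libraries of those times, with each DHA library below the Veh library of its time.

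At 1 h the counts were again 0 and 0, beside 1.33% and 1.73% of 7794 genes, with a median of -0.20 over the members and -0.05 over all genes. There 38 members were negative, beside 62.3% of all genes, or 34 beside 53.1% with TMM factors. Nop58, Ddx21 and Nolc1 were lowest at -0.41, -0.40 and -0.36, and Myc and Polr1c, with 0.25 and 0.06, were the 2 positive members, ahead of Noc2l with -0.03. At 4 h they were 0 and 0 once more, beside 2.22% and 2.42% of 7672 genes. The median was -0.08 over the members and 0.08 over all genes, with 29 members negative, beside 35.3% of all genes. TMM factors moved log2 ratios by -0.11 there and left 36 members negative, beside 56.5% of all genes, and a median of -0.19. Nop10 was lowest at -0.34, then Myc at -0.29 (-0.52 to -0.06) and Dkc1 at -0.21, and Nol6, Noc4l and Nhp2 were highest at 0.19, 0.14 and 0.14.

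The DHA comparisons depended on which barcodes were kept. Over all deposited barcodes the member medians were -0.41 at 0 h, -0.43 at 1 h and -0.38 at 4 h, all-gene medians were -0.25, -0.31 and -0.18, and 5, 9 and 3 members fell. The share of all genes that fell over all barcodes is not given here, so these counts are not read as particular to the members. The mitochondrial share of barcodes moved with DHA, and its part in these values was not tested. With a mitochondrial limit of 10% the medians were -0.19, -0.21 and -0.09. The 16 proliferation genes had a median of -0.41 with DHA at 0 h, where 0 passed the limit, and of -0.55 at 1 h, where 6 fell beside 1.73% of all genes, or 1 with TMM factors. At 4 h their median was 0.66 and 11 rose beside 2.22% of all genes, or 5 with TMM factors. Within the cells of low proliferation UMIs the member medians were -0.27, -0.23 and -0.08, with 0 calls at each time, beside all-gene medians of -0.05, -0.04 and 0.05.

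Per cell, Con lay above Veh.LPS.0 over the whole spread of cells, while Veh.LPS.4 lay above it mainly in the upper part. Each cell kept was thinned to 20000 UMIs, and the UMIs of the 40 members were summed. The median was 248.5 UMIs per cell in Con (quartiles 221 and 277), 159 in Veh.LPS.0 (140 and 180), 168 in Veh.LPS.1 (145 and 190) and 185 in Veh.LPS.4 (150 and 223). In DHA it was 149, 153 and 175 at 0, 1 and 4 h. Cells above the Veh.LPS.0 median made up 96.6% of Con, 60.3% of Veh.LPS.1 and 68.1% of Veh.LPS.4, and 37.0%, 44.3% and 62.0% of the DHA libraries. The upper quartile of Veh.LPS.0 was passed by 93.2% of Con cells and 53.8% of Veh.LPS.4 cells. The 5th percentile was 173 in Con, 105 in Veh.LPS.0 and 102.6 in Veh.LPS.4. For the 95th percentile the values were 319, 209 and 282.8. Without thinning the median was 500 UMIs for Con. It was 294, 243 and 519 for the Veh libraries of 0, 1 and 4 h and 347, 289 and 263 for their DHA counterparts, since total UMIs per cell differed.

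The spread between cells was wider at 4 h. The coefficient of variation of the summed UMIs was 0.179 in Con, 0.201 in Veh.LPS.0 and 0.287 in Veh.LPS.4, beside 0.0635 to 0.0821 that counting error alone would give. In DHA it was 0.240, 0.276 and 0.294. Within a library the median sum differed little between cells of low and high proliferation UMIs, with 241 and 251 in Con, 165 and 154 in Veh.LPS.0, and 185 and 183.5 in Veh.LPS.4. Spearman's correlation of the sum with those UMIs was 0.19 in DHA.LPS.0, 0.24 in DHA.LPS.1 and -0.09 to 0.09 elsewhere. Single members differed more, with log2 ratios of high over low cells up to 0.75 for Noc4l in DHA.LPS.4. The lowest was -2.77 for Myc in DHA.LPS.0, on 36 UMIs in all. Cells of 1 library are not replicates, and these values describe 7 libraries.

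**Figure D4:**
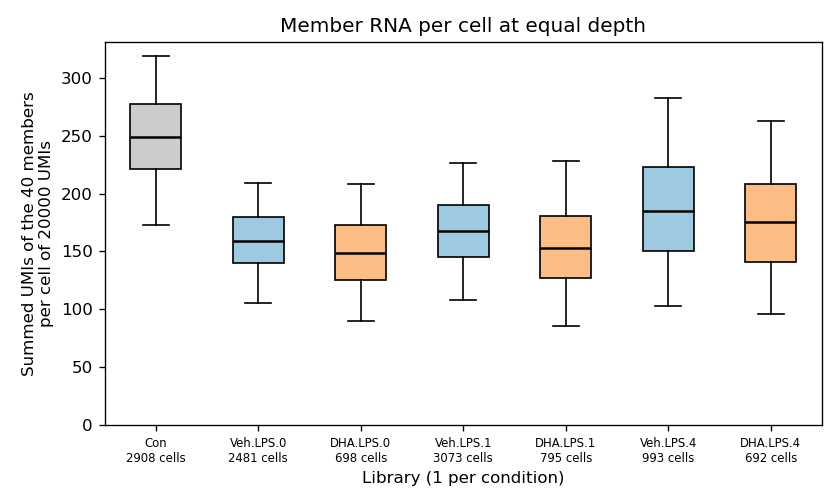
Boxes give the quartiles and the median of the summed UMIs of the 40 members per cell after each cell was thinned to 20000 UMIs, and whiskers the 5th and 95th percentiles, for the 7 libraries (grey Con, blue Veh, orange DHA). The Con box, from 221 to 277, lies above every other box except the top of the Veh.LPS.4 box at 223.

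The log2 level of a gene over the 7 libraries was correlated with the mean of the other 39, as a description over 7 points that share their depth and scaling. Pearson's r was above 0.9 for 17 members and above 0.5 for 34, with a median of 0.884. The same values over all genes are not given here, so these counts are not read as particular to the members. Only Myc was below 0, at -0.30. Rrp12, Wdr43, Utp20, Tsr1, Nop2 and Polr1a were closest to the others. Rrp1b, Nob1, Rrs1 and Polr1c were next lowest after Myc, and the standard deviation of Polr1c over the libraries was only 0.0730 on the log2 scale.

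A feature that the choice of genes did not use is the small nucleolar RNAs in their introns. By position in RefSeq (GRCm38.p6), 7 of the 40 members host 19 small nucleolar RNA genes, 5 of them in Nop56, 4 in Nop58, 3 each in Wdr43 and Gnl3, 2 in Ncl and 1 each in Dkc1 and Tsr1. The 7 hosts fell from Con to Veh.LPS.0, by 0.59 for Nop56 to 1.19 for Ncl on the log2 scale, beside 20 of the 33 other members and 7.76% of all genes. Nop56 passed 1.5-fold only narrowly and fell short of it over all barcodes. In cells of low proliferation UMIs, Nop56, Wdr43 and Gnl3 fell short, with -0.41, -0.48 and -0.39. Ncl, Tsr1, Nop58 and Dkc1 stayed past it there, with -0.99, -0.94, -0.82 and -0.82. At 4 h of LPS in Veh, Nop58 and Tsr1 were the only hosts among the 9 members that rose. By position 13 members overlap another gene of the files, as Dkc1 does Mpp1, Tsr1 does Srr and Mybbp1a does Spns2, and how reads from the shared stretches were assigned was not checked.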

How the data were processed

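Single-cell libraries (10x 3′ v3) of 7 conditions were analysed. The authors deposited, per library, unnormalized UMI counts per gene and barcode from Cell Ranger (3.1.0 per the submitters' processing notes, which is not the version in the study's methods), with mm10 as the build. Cells with over 20000 UMIs, at least 2000 genes and under 20% mitochondrial UMIs were kept, as in the study. Doublets were not removed. Libraries shared at most 4 kept barcodes. UMIs were summed per library and divided by its total. Ratios carry exact binomial 95% intervals. A gene was called by size when past 1.5-fold and found by its UMI in 25% or more of the cells on at least 1 side. No p was computed. edgeR 4.0.16 and DESeq2 1.42.0 (R 4.3.3) gave only scaling factors, and the rest ran in Python 3.11.15 (numpy 2.4.6, scipy 1.17.1, pandas 2.3.3, matplotlib 3.10.9). The ratio step was tested on simulated data. Named were all members by role, in each comparison the 3 highest and 3 lowest, and some extremes of other lists among genes with at least 100 UMIs. The remaining extremes, such as those of the RNA polymerase I and III, exosome and MYC network lists, are not named. Members and lists were chosen with earlier results of these data known. Mtrex of the exosome list was matched as Skiv2l2. The alternatives were TMM and DESeq2 factors, equal weight per cell, all barcodes, a mitochondrial limit of 10%, at least 10000 UMIs, leaving out the top 5% of cells by UMIs, no share limit (with at least 10 UMIs) or one of 50%, a limit of 2-fold, and cells of low proliferation UMIs. Promoter and protein sequences were not analysed here.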

Additional observations from a re-analysis of the deposited data

Results flagged for a closer look

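Myc differed in sign between times under the same contrast of DHA with Veh. Its log2 ratio was 0.83 at 0 h, from 0.577 CPM in Veh.LPS.0 and 1.03 in DHA.LPS.0, and -0.29 at 4 h, from 11.1 CPM in Veh.LPS.4 and 9.12 in DHA.LPS.4. With 1 library per condition the difference was not tested, and the 0 h value rests on 57 and 36 UMIs.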

How the results depend on the processing

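Of 198 recomputed counts of members past the limit (9 comparisons, both directions, 11 alternatives), 159 stayed within 1.5 times the value reported and 39 did not. None of 480 recomputed values of called single members changed sign, but 161 were recorded as moved and 319 as the same. The share of all genes past the limit is given here only for the main setting and TMM factors. Counts under the other alternatives below therefore have no such share beside them. With TMM factors 24 members rose at LPS 4 h in Veh, 15 from 1 h to 4 h, 23 at LPS 4 h in DHA and 2 at LPS 1 h in DHA, and with DESeq2 factors 24, 14, 25 and 2. Both left 0 lower at LPS 1 h in Veh and at LPS 4 h in either arm. With a limit of 2-fold 2 fell in reduced serum, 0 rose and 0 fell at LPS 1 h in Veh, 1 rose and 0 fell at 4 h, 1 rose from 1 h to 4 h, and in DHA at 4 h 2 rose and 0 fell. Over all barcodes 0 fell at LPS 1 h in Veh, 3 rose and 1 fell from 1 h to 4 h, 2 rose at LPS 1 h and 6 at 4 h in DHA, and with DHA 5, 9 and 3 fell at 0, 1 and 4 h. In cells of low proliferation UMIs 1 rose at LPS 1 h and 3 from 1 h to 4 h in Veh, and in DHA 2 rose at 1 h and 0 fell at 4 h. With no share limit 1 rose in reduced serum, 2 at LPS 1 h in DHA and 1 with DHA at 0 h. With a share limit of 50% 0 fell at LPS 1 h in Veh, and with at least 10000 UMIs 1 fell from 1 h to 4 h. With TMM factors, an alternative chosen after seeing the data, the median difference between the LPS ratios of the 2 arms went from 0.13 to 0.00554 at 4 h and from 0.01 to 0.0352 at 1 h. The cause of these shifts was not tested, except that a limit of 2-fold and the share limits act by construction. Member medians ranged from -0.72 to -0.55 for reduced serum, 0.19 to 0.70 for LPS 4 h in Veh, 0.22 to 0.76 in DHA, and -0.43 to -0.16 for DHA at 1 h. No paired analysis was possible because each condition had 1 library. Depth limited Myc most, with 33 UMIs in Con.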
